A study of Saccharomyces cerevisiae with 8 samples.

Results

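The 10 genes studied, of the tricarboxylic acid (TCA) cycle and malic enzyme, were followed through the NaCl response of 3 yeast strains. They were chosen by their systematic names from the 6868 features of the table: *CIT1* (YNR001C), *CIT2* (YCR005C), *ACO1* (YLR304C), *IDH1* (YNL037C), *IDH2* (YOR136W), *KGD1* (YIL125W), *KGD2* (YDR148C), *FUM1* (YPL262W), *MDH1* (YKL085W) and *MAE1* (YKL029C). All 10 had a value on each of the 8 arrays and are among the 6135 features tested. The choice was made with earlier results of these data known, so counts of members beside shares of all features are description only.

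The strains were *Saccharomyces cerevisiae* of the W303 background. The *cdc14-3 snf1* strain (3 arrays) carries both mutations, the *cdc14-3* strain (2 arrays, replicates 2 and 3) has a temperature-sensitive form of Cdc14, a phosphatase needed to leave mitosis, and the *snf1* strain (3 arrays) lacks Snf1, a protein kinase known for releasing genes from glucose repression. Cells of every strain grew in rich glucose medium (YPD) at 25 °C and were moved to 35 °C, at which Cdc14-3 is inactive, for 90 min (replicate 1 of *cdc14-3 snf1* and of *snf1*) or 2 h (the other 6 arrays), before 0.7 M NaCl was added for 30 min. Every array set the treated cells against unstressed ones of that strain, taken just before the salt, so the treated cells also had the longer time at 35 °C. No wild-type array was analysed here, and a ratio says nothing of the level in unstressed cells. A ratio is an average over the culture, so a change in every cell and a change in the share of cells that express a gene cannot be told apart.

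The TCA cycle oxidises acetyl groups to carbon dioxide in the mitochondrial matrix and gives its electrons to the respiratory chain, and its intermediates are also drawn off for amino acid synthesis. In yeast growing on glucose most of its genes are held low, and 2 sets of regulators are known to raise them. The Hap complex, limited by its subunit Hap4, acts when glucose is spent, while Rtg1 and Rtg3 act when mitochondrial function is weak and are known for their effect on *CIT2* and on the first steps of the cycle, from *CIT1* to *IDH2*. Malic enzyme lies beside the cycle and turns malate into pyruvate inside mitochondria.

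Values are log2 ratios of NaCl-treated over unstressed cells. The direction is not stated with them and was read from genes with a known response. On all 8 arrays the 5 osmotic stress genes *GPD1*, *STL1*, *HSP12*, *CTT1* and *GRE2* lay at 1.23 or higher, and the mean of 131 ribosomal protein genes lay between -1.58 and -0.38. The base of the logarithm is likely rather than stated, so folds hold only for base 2. Between 6165 and 6776 features had a value on an array, and the SD over features of an array ranged from 0.72 to 1.10. *SNF1* had a ratio of 2.41 on *snf1* replicate 1 and of -0.43 to 0.28 on the other 7 arrays, and *CDC14* one of -0.27 to 0.52. These ratios cannot check either mutation, since both channels held RNA of the same strain. The same dye marked the treated cells on every array, so a dye bias of a gene enters each response and cancels in a difference between strains. Nothing in the labels says whether the replicates were separate cultures, so p-values measure the spread between these arrays, which may be technical. Over 6096 features, *snf1* replicate 1 had a Pearson r of 0.767 and 0.769 with *snf1* replicates 2 and 3. Its r with *cdc14-3 snf1* replicate 1, the other array with the shorter heat time, was 0.904. Replicates 2 and 3 of *snf1* had an r of 0.876 with each other. The *snf1* arrays were thus not equally alike, and the cause was not tested.

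Across the members, the strongest response was the drop of *MAE1*, and the response that varied most among strains was that of *CIT2*. A gene was called where its adjusted p in limma was under 0.05 after Benjamini-Hochberg adjustment over the 6135 features. In *cdc14-3 snf1* cells 1 of 10 members rose and 5 fell, where 20.6% of all tested features rose and 25.5% fell. In *cdc14-3* cells 2 rose and 3 fell, beside 18.3% and 22% of all features. In *snf1* cells none rose and 5 fell, beside 24.3% and 27%. The median over the members was -0.55 in *cdc14-3 snf1*, 0.00 in *cdc14-3* and -0.47 in *snf1* cells, beside medians of -0.03, 0.00 and -0.06 over all features tested. On single arrays the median member lay between -0.69 and -0.01, and between 1 and 5 members lay above 0.

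**Figure D1:**
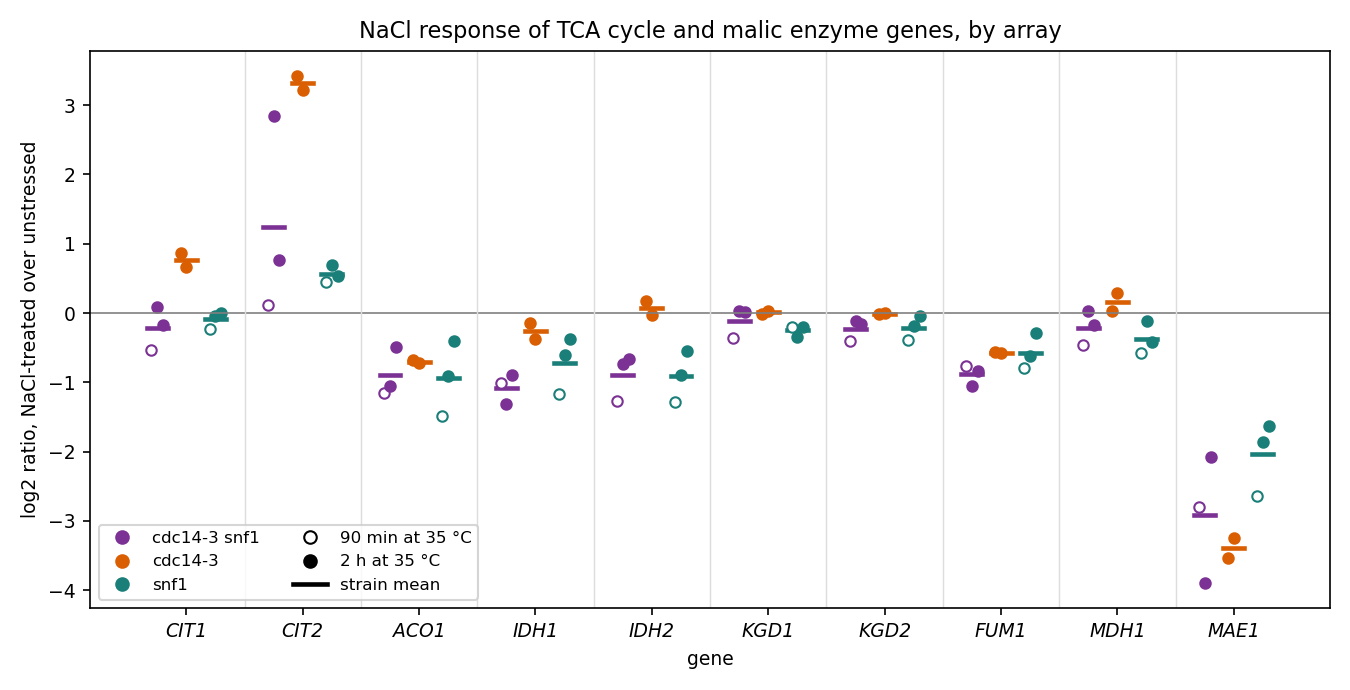
Log2 ratio of NaCl-treated over unstressed cells (vertical axis) for the 10 genes on each of the 8 arrays, coloured by strain, with open points for 90 min and filled points for 2 h at 35 °C before NaCl and bars for strain means. *MAE1* lies at -1.63 or lower on every array, and *CIT2* lies above 3 on both *cdc14-3* arrays and below 1 on all others but 1.

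Citrate synthase opens the cycle by joining acetyl-CoA and oxaloacetate. Its mitochondrial form, *CIT1*, had ratios of -0.54, 0.09 and -0.17 in *cdc14-3 snf1* cells, 0.86 and 0.66 in *cdc14-3* cells and -0.23, -0.04 and 0.00 in *snf1* cells. Both *cdc14-3* arrays thus lay above the other 6. *CIT1* rose in *cdc14-3* cells (mean 0.76 ± 0.14, SD, n = 2, limma adjusted p = 0.00712), whereas the means of -0.21 ± 0.32 in *cdc14-3 snf1* and -0.09 ± 0.12 in *snf1* cells (n = 3 each) did not pass the test. The call in *cdc14-3* needed both arrays: without replicate 2 the ratio was 0.66 and the limma adjusted p 0.14, and without replicate 3 they were 0.86 and 0.0527.

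*CIT2* encodes the peroxisomal citrate synthase, which feeds the glyoxylate cycle and is the best known target of Rtg1 and Rtg3. Its ratios were 0.12, 2.84 and 0.77 in *cdc14-3 snf1* cells, 3.42 and 3.22 in *cdc14-3* cells, and 0.45, 0.69 and 0.53 in *snf1* cells. Every array lay above 0, and 1 array of the double mutant, replicate 2, came close to the *cdc14-3* arrays while its other 2 lay near those of *snf1*. The rise in *cdc14-3* cells averaged 3.32 ± 0.14 (SD, n = 2), 9.99-fold on base 2, with a limma adjusted p of 0.000743, at percentile 99.3 of the features tested. In *cdc14-3 snf1* cells the mean was 1.24 ± 1.42 (limma adjusted p = 0.0284). That call rested on few arrays, since it was lost without replicate 2 of the same strain (0.45, adjusted p = 0.101) and without *cdc14-3* replicate 2 (1.24, adjusted p = 0.0501). The *snf1* mean of 0.56 ± 0.12 was not called (limma adjusted p = 0.258), but the fit without *cdc14-3 snf1* replicate 2, whose spread enters the error of all strains, called it (0.56, adjusted p = 0.0166).

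The gene for aconitase, the iron-sulphur enzyme that isomerises citrate, had a ratio below 0 on all 8 arrays. *ACO1* had ratios of -1.15, -1.05 and -0.49 in *cdc14-3 snf1* cells, -0.68 and -0.72 in *cdc14-3* cells, and -1.49, -0.91 and -0.41 in *snf1* cells. The strains overlapped throughout. It fell in each of them, to means of -0.89 ± 0.36, -0.70 ± 0.03 and -0.94 ± 0.54 in that order (limma adjusted p = 0.00592, 0.0486 and 0.00444). The call in *cdc14-3* was close to the threshold and was lost without either array of its own (adjusted p = 0.251 without replicate 2 and 0.237 without replicate 3, at ratios of -0.72 and -0.68). It was also lost, at a mean of -0.70, without *cdc14-3 snf1* replicate 1 (0.0558) or 2 (0.0623), without *snf1* replicate 2 (0.0642) and with all features tested (0.0616).

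Isocitrate dehydrogenase is built of both *IDH1*, the regulatory subunit, and *IDH2*, the catalytic one. *IDH1* had ratios of -1.01, -1.32 and -0.90 in *cdc14-3 snf1* cells, -0.14 and -0.38 in *cdc14-3* cells and -1.17, -0.60 and -0.38 in *snf1* cells. The 3 double mutant arrays lay below both *cdc14-3* arrays, while those of *snf1* overlapped both. *IDH1* fell in *cdc14-3 snf1* (-1.08 ± 0.22, limma adjusted p = 0.00099) and in *snf1* cells (-0.72 ± 0.41, adjusted p = 0.00596), and averaged -0.26 ± 0.17 without passing the test in *cdc14-3* cells. For *IDH2* the ratios were -1.27, -0.74 and -0.66 in *cdc14-3 snf1* cells, 0.17 and -0.03 in *cdc14-3* cells, and -1.29, -0.89 and -0.55 in *snf1* cells. Here the *cdc14-3* arrays stood around 0, above every array of both *snf1*-carrying strains. *IDH2* fell in *cdc14-3 snf1* (-0.89 ± 0.34, limma adjusted p = 0.00277) and *snf1* cells (-0.91 ± 0.37, adjusted p = 0.00228), and averaged 0.07 ± 0.15 in *cdc14-3* cells (adjusted p = 0.811).

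The alpha-ketoglutarate dehydrogenase genes moved least. *KGD1*, for the decarboxylating component of the complex, had ratios of -0.36, 0.03 and 0.01 in *cdc14-3 snf1* cells, -0.01 and 0.03 in *cdc14-3* cells and -0.20, -0.35 and -0.20 in *snf1* cells. *KGD2*, for the succinyl-transferring component, had -0.41, -0.12 and -0.16 in *cdc14-3 snf1* cells, -0.02 and 0.00 in *cdc14-3* cells, and -0.39, -0.19 and -0.04 in *snf1* cells. No array of either gene was farther than 0.41 from 0, and limma called neither in any strain. With arrays weighted by their quality, *KGD1* was called in *snf1* cells (-0.29, limma adjusted p = 0.0476).

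*FUM1*, the gene from which fumarase is made for both mitochondria and cytosol, fell in all strains. Its ratios were -0.76, -1.05 and -0.83 in *cdc14-3 snf1* cells, -0.56 and -0.57 in *cdc14-3* cells, and -0.80, -0.62 and -0.29 in *snf1* cells. The means were -0.88 ± 0.15, -0.57 ± 0.01 and -0.57 ± 0.26 in that order (limma adjusted p = 0.000889, 0.0202 and 0.00627). In *cdc14-3* cells the call needed both arrays (-0.57, adjusted p = 0.173, without replicate 2, and -0.56, adjusted p = 0.157, without replicate 3). *MDH1*, the mitochondrial malate dehydrogenase that closes the cycle, had ratios of -0.46, 0.03 and -0.18 in *cdc14-3 snf1* cells, 0.03 and 0.29 in *cdc14-3* cells and -0.58, -0.11 and -0.42 in *snf1* cells. Both *cdc14-3* arrays lay above 0 and all *snf1* arrays below it. None of its means (-0.21 ± 0.25, 0.16 ± 0.18 and -0.37 ± 0.24) passed the test. The *snf1* mean came nearest (limma adjusted p = 0.0555) and was called without *snf1* replicate 2 (-0.50, adjusted p = 0.0447) or without *cdc14-3 snf1* replicate 1 (-0.37, adjusted p = 0.0481).

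*MAE1*, the mitochondrial malic enzyme, had the lowest ratio of the 10 genes on every array. The values were -2.80, -3.89 and -2.08 in *cdc14-3 snf1* cells, -3.54 and -3.25 in *cdc14-3* cells, and -2.64, -1.86 and -1.63 in *snf1* cells. It fell in *cdc14-3 snf1* (-2.92 ± 0.91, limma adjusted p = 0.000246), in *cdc14-3* (-3.39 ± 0.20, adjusted p = 0.000174) and in *snf1* cells (-2.04 ± 0.53, adjusted p = 0.000692). On base 2 the *cdc14-3* mean is a ratio 10.5-fold lower after NaCl. Among the 6135 features it ranked 2, 3 and 8 from the lowest in the same order of strains, and no alternative fit lost any of these calls.

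The comparison of *cdc14-3* with *snf1* cells asked how the inactive phosphatase and the missing kinase differ in their salt response, and it gave the only calls of members between strains. *CIT1* (0.85 ± 0.22, SE, adjusted p = 0.0305), *CIT2* (2.76 ± 0.63, adjusted p = 0.0187) and *IDH2* (0.98 ± 0.27, adjusted p = 0.036, all by limma) were higher in *cdc14-3* than in *snf1* cells. These 3 of 10 members stand beside 8.74% of all features called higher, and no member was called lower, beside 10.2% of all features. *MDH1* (0.53 ± 0.23), *IDH1* (0.46), *KGD1* (0.26), *ACO1* (0.24), *KGD2* (0.20) and *FUM1* (0.00) were not called. The *cdc14-3* arrays lay above all *snf1* arrays for 6 members and below them for 1, *MAE1*, where 25.2% and 27.1% of all features lay so. The median difference was 0.36 over the members and -0.02 over all features tested.

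The 3 calls hold on the 6 arrays with 2 h at 35 °C, with differences of 0.78 for *CIT1*, 2.71 for *CIT2* and 0.79 for *IDH2* (limma adjusted p = 0.0133, 0.0126 and 0.0155). All were lost when *cdc14-3* replicate 2 was left out (0.75, 2.66 and 0.88, adjusted p = 0.226, 0.148 and 0.24), when *cdc14-3* replicate 3 was (0.95, 2.86 and 1.08, adjusted p = 0.107, 0.085 and 0.12), and when *snf1* replicate 2 was (0.87, 2.83 and 0.99, adjusted p = 0.0722, 0.0504 and 0.0847). *CIT1* was also lost without *snf1* replicate 3 (0.89, adjusted p = 0.0546), and both *CIT1* (0.85, 0.0529) and *IDH2* (0.98, 0.0518) without *cdc14-3 snf1* replicate 3. A fit of *cdc14-3* and *snf1* alone lost *IDH2* (0.98, 0.0527). *MAE1* differed by -1.35 ± 0.48 without being called (limma adjusted p = 0.0777). It was called on the 2 h arrays (-1.64, adjusted p = 0.0441), with array weights (-1.54, 0.0238) and with 1 spread for all arrays (-1.64, 0.0276). It was also called with *snf1* replicate 1 left out (-1.64, 0.0351) and with *cdc14-3 snf1* replicate 2 left out (-1.35, 0.031). A fit of *cdc14-3* and *snf1* alone called it too (-1.35, 0.0372). In the other direction, another alternative raised its adjusted p in limma to 0.324.

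Setting *cdc14-3 snf1* against *cdc14-3* cells asked what the loss of Snf1 added where Cdc14 was inactive. For 7 of 10 members, all but *ACO1*, *KGD1* and *MAE1*, the 3 double mutant arrays lay below both *cdc14-3* arrays, and none lay above. Of all features 17% lay below and 18.8% above in this way. The median difference was -0.34 over the members and -0.01 over all features. The sizes were largest for *CIT2* (-2.08 ± 0.63, SE), *CIT1* (-0.97 ± 0.22), *IDH2* (-0.96 ± 0.27) and *IDH1* (-0.82 ± 0.26), then *MDH1* (-0.37), *FUM1* (-0.31) and *KGD2* (-0.22). *MAE1* differed by 0.47 ± 0.48 with overlapping arrays, and by -0.19 after quantile normalization. None of the 10 was called by limma, with adjusted p of 0.142 for *CIT1*, 0.245 for *IDH2*, 0.265 for *CIT2* and 0.306 for *IDH1*. At an unadjusted p under 0.05 these 4 members and 676 features in all would pass. Calls were rare here throughout, at 0.0489% of features, which is 3.

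Calls appeared under other treatments of the same comparison. With arrays weighted by quality, limma called *CIT1* (-0.91, adjusted p = 0.0104), *CIT2* (-2.20, 0.0316), *IDH2* (-0.81, 0.0328) and *IDH1* (-0.73, 0.0436) lower in the double mutant. That setting called 272 features in all, where the main fit called 3. Without *cdc14-3 snf1* replicate 2, the array that carried the high *CIT2* ratio, *CIT2* was the only member called (-2.88, limma adjusted p = 0.0159). In that fit 24 features were called in all. On the 2 h arrays the differences were -1.51 for *CIT2*, -0.80 for *CIT1*, -0.77 for *IDH2* and -0.85 for *IDH1*, and none was called.

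**Figure D2:**
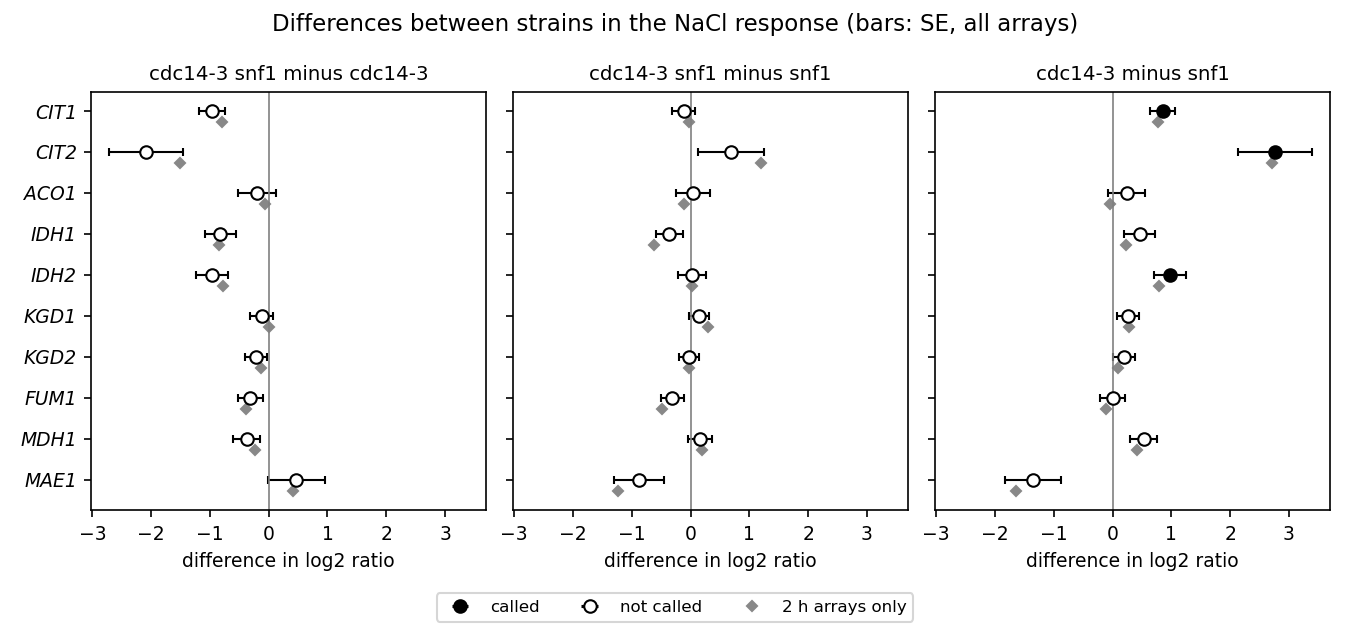
Difference in log2 ratio between strains for each gene (horizontal axis, circles with SE bars from the fit of all arrays, filled where called), with grey diamonds for the arrays with 2 h at 35 °C only. *CIT1*, *CIT2* and *IDH2* are the filled circles of *cdc14-3* minus *snf1*, at 0.85, 2.76 and 0.98, and their circles in *cdc14-3 snf1* minus *cdc14-3* lie at -0.97, -2.08 and -0.96.

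The comparison of *cdc14-3 snf1* with *snf1* cells asked what inactive Cdc14 added where Snf1 was missing. With both heat times together, no member had arrays that did not overlap. Of all features 9.01% lay higher and 10% lower without overlap. The largest differences were -0.88 ± 0.43 for *MAE1* (limma adjusted p = 0.303) and 0.69 for *CIT2*, followed by -0.36 for *IDH1* and -0.31 for *FUM1*, and the other 6 lay between -0.12 and 0.16. The call rate was 0% of the features tested by limma, and at an unadjusted p under 0.05 no member but 1137 features would pass. The *CIT2* difference rested on *cdc14-3 snf1* replicate 2 and was -0.11 without it. On the 2 h arrays alone the largest differences were -1.24 for *MAE1*, 1.20 for *CIT2*, -0.62 for *IDH1* and -0.49 for *FUM1*. Limma called 1382 features there but no member. For these members and *KGD1*, the 2 h arrays of the strains did not overlap. With 2 arrays in each strain, the share of all features for which this holds was not counted. Whether the members stand out in this is therefore not known. Within the arrays held at 35 °C for 90 min, of which there was 1 for each of these strains, the members differed by -0.34 (*CIT2*) to 0.34 (*ACO1*). This is the only comparison that could be made at 90 min, and it has no replicate check. The comparisons share arrays in pairs, so their values are not independent of each other.

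Pairs of genes for related enzymes were compared within each array. *CIT2* exceeded *CIT1* by 0.66, 2.75 and 0.94 in *cdc14-3 snf1* cells, by 2.56 and 2.56 in *cdc14-3* cells and by 0.68, 0.73 and 0.53 in *snf1* cells. The ratio of the gene for the peroxisomal form thus stood above that for the mitochondrial form on every array. Both ratios were highest in *cdc14-3* cells. *IDH1* minus *IDH2* was 0.26, -0.58 and -0.24 in *cdc14-3 snf1* cells, -0.32 and -0.35 in *cdc14-3* cells and 0.12, 0.29 and 0.17 in *snf1* cells. The *IDH1* ratio was thus the lower of the pair on both *cdc14-3* arrays and the higher on all *snf1* arrays. *KGD1* and *KGD2* stayed within 0.19 of each other on every array.

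*MDH2*, the cytosolic malate dehydrogenase of gluconeogenesis, exceeded *MDH1* by 1.49, 1.33 and 1.66 in *cdc14-3 snf1* cells, 2.49 and 2.28 in *cdc14-3* cells, and 2.36, 1.30 and 1.37 in *snf1* cells. *CIT3*, a further mitochondrial citrate synthase gene, exceeded *CIT1* on every array, by 0.45 to 2.14. Related genes such as *CIT1* and *CIT2*, or *PYC1* and *PYC2*, could share signal where their probes are alike, and the probes were not analysed here.

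**Figure D3:**
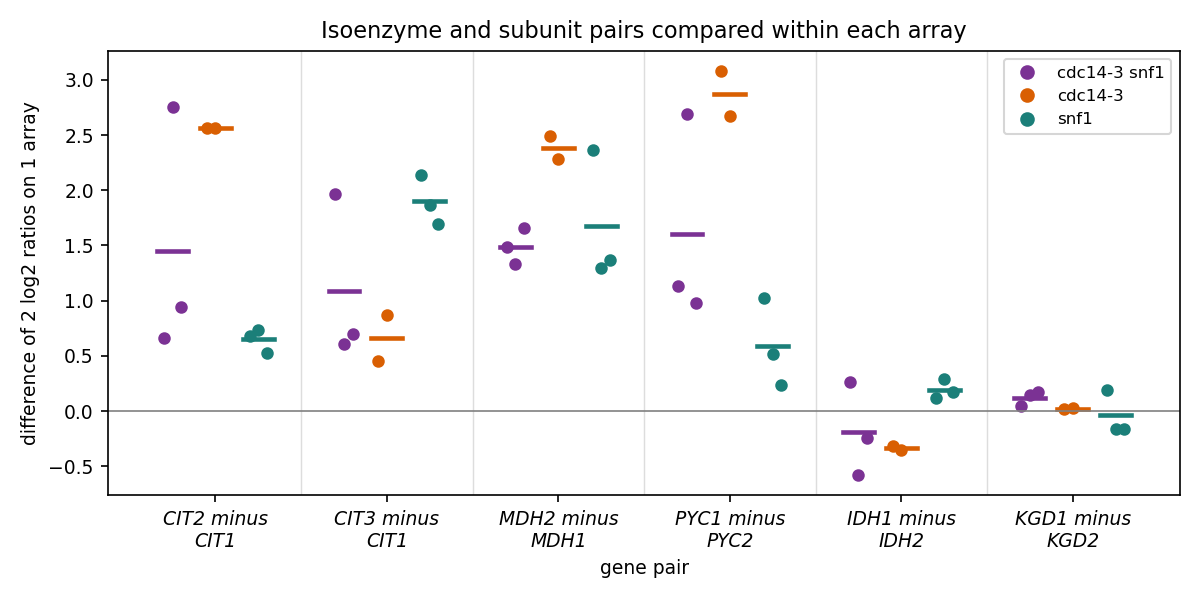
Difference of 2 log2 ratios on the same array (vertical axis) for pairs of isoenzyme or subunit genes, with a point per array coloured by strain and bars for strain means. *CIT2* minus *CIT1* is 2.56 on both *cdc14-3* arrays and 0.53 to 0.73 in *snf1* cells, and *KGD1* minus *KGD2* stays near 0.

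A list of 9 other TCA cycle genes gave 3 rises and 1 fall in *cdc14-3 snf1*, 3 and 1 in *cdc14-3* and 1 and 1 in *snf1* cells by limma. *CIT3* rose in all strains (means 0.89 ± 0.48, 1.42 ± 0.16 and 1.81 ± 0.11 in that order). Succinate dehydrogenase, which links the cycle to the respiratory chain, held all 3 genes of this list called between *cdc14-3* and *snf1* cells. The iron-sulphur subunit gene *SDH2* differed by 1.27, and the membrane anchor genes *SDH3* and *SDH4* by 1.20 and 1.11 (limma adjusted p = 0.00759, 0.0199 and 0.0408), all higher in *cdc14-3* cells. *SDH1*, the other gene of this enzyme in the list, was not called (0.25, limma adjusted p = 0.395), and its arrays overlapped. *SDH2* had ratios of 0.41 and 0.32 in *cdc14-3* cells against -0.88, -1.09 and -0.74 in *snf1* cells. *SDH2* kept its call in 7 of 8 fits that left out 1 array, *SDH3* in 5 and *SDH4* in 3. Another alternative raised the adjusted p of *SDH4* in limma to 0.0711.

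Of 5 isoenzyme genes outside the cycle, 3 rose and 1 fell in *cdc14-3 snf1*, 2 rose and 1 fell in *cdc14-3*, and 3 rose in *snf1* cells. *MDH2* rose to means of 1.29 ± 0.23, 2.54 ± 0.04 and 1.31 ± 0.43 in that order and was the only one called between strains, at 1.24 higher in *cdc14-3* than in *snf1* cells (limma adjusted p = 0.0154, called in 5 of 8 fits without 1 array). *IDP3*, the peroxisomal NADP-dependent isocitrate dehydrogenase, rose in every strain (0.90 ± 0.18, 1.29 ± 0.16 and 1.43 ± 0.04).

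Among 10 genes at the entry of pyruvate, none rose and 3 fell in *cdc14-3 snf1* cells, 3 rose and 2 fell in *cdc14-3* cells, and none rose and 5 fell in *snf1* cells. The pyruvate carboxylase genes, which refill oxaloacetate, moved apart. *PYC1* had ratios of 1.09 and 0.80 in *cdc14-3* cells against -0.21, -0.27 and -0.67 in *snf1* cells, a difference of 1.33 (limma adjusted p = 0.021). *PYC2* had -1.99 and -1.87 in *cdc14-3* against -1.23, -0.79 and -0.92 in *snf1* cells, a difference of -0.95 (adjusted p = 0.0377). The phosphatase and kinase genes of pyruvate dehydrogenase *PTC6* and *PKP2* were higher in *cdc14-3* than in *snf1* cells by 1.51 and 0.90 (limma adjusted p = 0.00471 and 0.029). Leaving out 1 array at a time kept the call of *PTC6* in 7 of 8 fits and those of *PYC1*, *PYC2* and *PKP2* in 4 each. Another alternative raised the adjusted p of *PYC2* in limma to 0.095.

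The regulators of these genes moved in both directions. *HAP4*, the limiting activator subunit, fell in *cdc14-3 snf1*, *cdc14-3* and *snf1* cells (-1.45 ± 0.44, -0.95 ± 0.14 and -1.36 ± 0.18, limma adjusted p = 0.000317, 0.00527 and 0.000295), and so did *RTG1* (-0.62 ± 0.11, -0.51 ± 0.04 and -1.05 ± 0.24, adjusted p = 0.00367, 0.0275 and 0.000295). *HAP1*, a haem-responsive activator, rose in *cdc14-3 snf1* and *snf1* cells (0.85 ± 0.44 and 0.78 ± 0.66) and averaged -0.08 ± 0.06 in *cdc14-3* cells, where it was not called. *HAP2* rose in *cdc14-3 snf1* and *snf1* cells (0.60 ± 0.24 and 0.51 ± 0.31) and averaged 0.34 ± 0.20 in *cdc14-3* cells without a call. In the main fit *RTG2*, *RTG3*, *MKS1*, *HAP3* and *HAP5* were called in no strain, and none of the 9 regulators was called between strains by limma. With array weights, limma called *RTG2* in *cdc14-3* minus *snf1* (0.42, adjusted p = 0.0458), among 2548 features. It also called *RTG3* (0.57, 0.0381) and *HAP5* (-0.78, 0.0235) in *cdc14-3 snf1* minus *snf1*, among 1657 features.

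Of 11 mitochondrial carriers and neighbouring enzymes, 1 rose and 7 fell in *cdc14-3 snf1* cells, 1 and 4 did so in *cdc14-3* cells and 1 and 6 in *snf1* cells. *DIC1*, the dicarboxylate carrier that brings malate and succinate into mitochondria, was the only gene of these lists called between *cdc14-3 snf1* and *cdc14-3* cells. It had ratios of -0.02, 0.09 and 0.12 in *cdc14-3 snf1* cells, 1.70 and 1.49 in *cdc14-3* cells and -0.73, -0.33 and -0.43 in *snf1* cells. Its differences were -1.53 for *cdc14-3 snf1* minus *cdc14-3* (limma adjusted p = 0.0424, called in 2 of 8 fits without 1 array) and 2.09 for *cdc14-3* minus *snf1* (adjusted p = 0.00272, called in 7 of 8). *DLD3*, a cytosolic 2-hydroxyglutarate transhydrogenase known as a retrograde target like *CIT2*, was higher in *cdc14-3* than in *snf1* cells by 2.04 (limma adjusted p = 0.0226). *GDH1*, which uses alpha-ketoglutarate to fix ammonia, was lower by -1.72 (adjusted p = 0.01), and *SFC1*, a succinate-fumarate carrier, by -0.92 (adjusted p = 0.0422). With 1 array left out, *GDH1* kept its call in 6 of 8 fits, *DLD3* in 5 and *SFC1* in 2, and another alternative raised the adjusted p of *SFC1* in limma to 0.13.

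**Figure D4:**
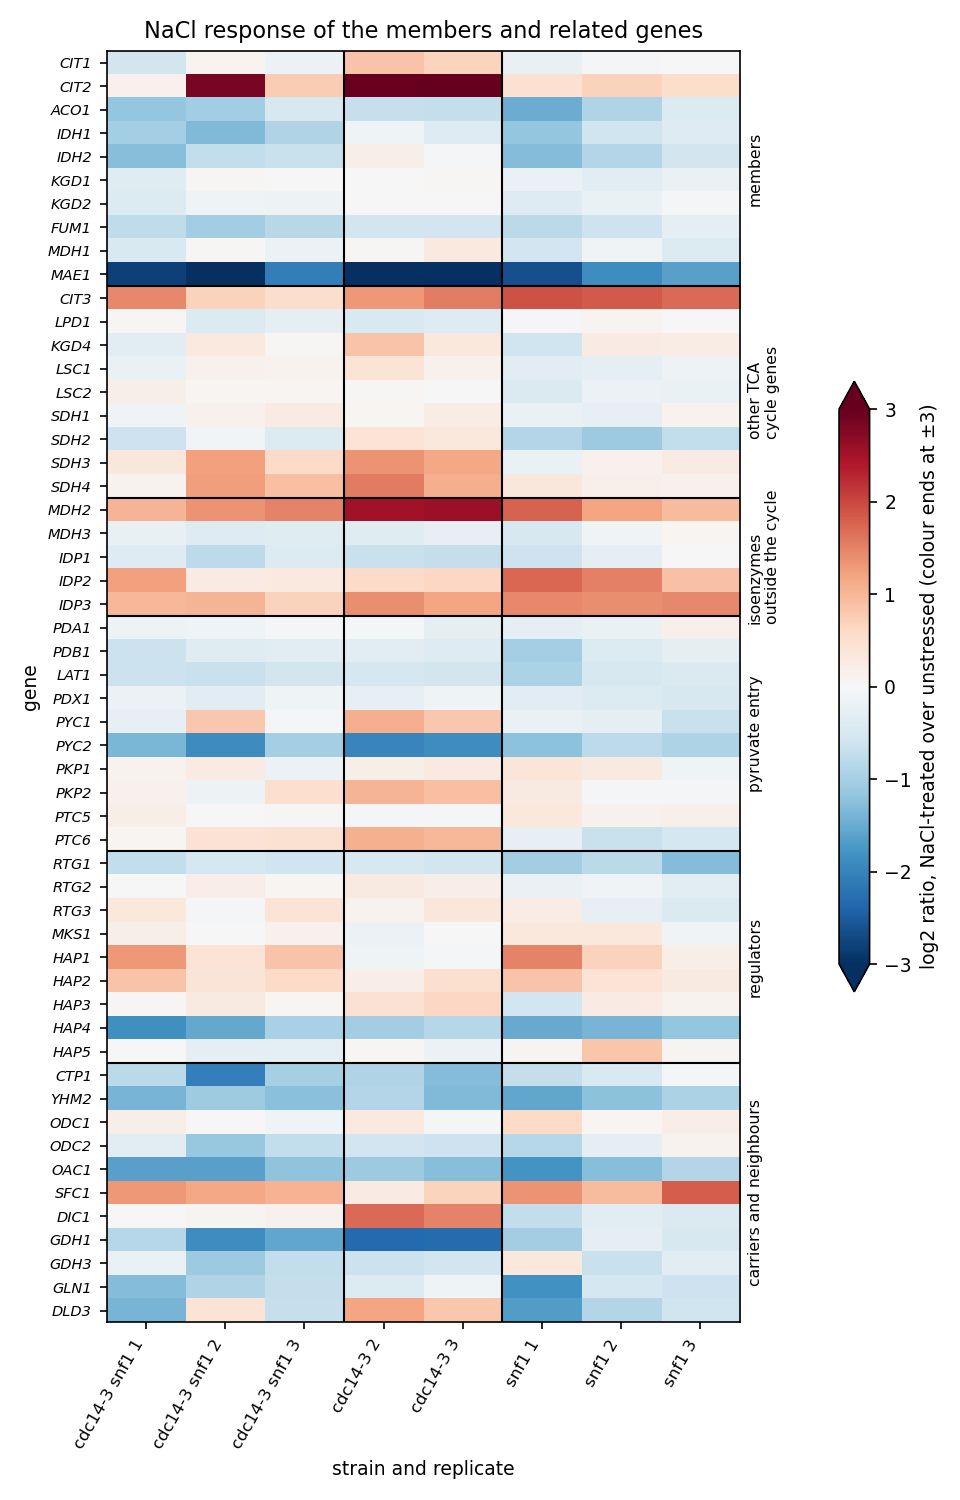
Log2 ratio of NaCl-treated over unstressed cells (colour, ends at ±3) for the 10 members and the related gene lists in rows and the 8 arrays in columns, ordered as *cdc14-3 snf1*, *cdc14-3* and *snf1*. *MAE1* and *HAP4* are below 0 on every array, *CIT2*, *CIT3* and *MDH2* above 0 on every array, and *DIC1* is at 1.49 or above in *cdc14-3* cells only.

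Over the 8 arrays, *CIT1* varied most closely with *IDH2* (Pearson r = 0.94), *IDH2* with *KGD2* (0.91) and *CIT1* with *CIT2* (0.89), while *CIT2* and *MAE1* had the lowest correlation of any 2 members (-0.78). These values describe 8 points that share strains and scale, so they carry no test. Among 6096 features with a value on every array, the 5 most like *MAE1* were *ARO1* (0.97), *YAP6* (0.97), *SHM2* (0.97), *LYS4* (0.97) and *PYC2* (0.96). All 5 lay below 0 on every array, and *LYS4*, an enzyme of lysine synthesis, averaged -1.70, -2.16 and -0.84 in *cdc14-3 snf1*, *cdc14-3* and *snf1* cells. The features most like *CIT1* were *DIP5* (0.98), *YBR085C-A* (0.98), *YET3* (0.97), *GCY1* (0.96) and *YOS9* (0.96). The amino acid permease gene *DIP5* averaged -0.33, 1.70 and -0.36 in the same order, a larger spread than that of *CIT1*.

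Arrays of *cdc14-3* cells also lay above all *snf1* arrays for every stress gene but *GPD1*, where 25.2% of all features lay so. The median difference over the 5 stress genes was 1.07, beside -0.02 over all features tested. *CTT1*, the cytosolic catalase, and *HSP12* were higher in *cdc14-3* than in *snf1* cells by 3.02 and 1.70 (limma adjusted p = 0.0233 and 0.0444), while *GPD1*, an enzyme of glycerol synthesis, differed by 0.03. The call of *CTT1* held in 5 of 8 fits without 1 array and that of *HSP12* in 3, and other alternatives raised their adjusted p in limma to as much as 0.123 and 0.0576. All 5 stress genes rose in every strain. Whether the overall size of the stress response has a part in the differences of *CIT1*, *CIT2* and *IDH2* was not tested.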

How the data were processed

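Cells of 3 strains were profiled on 8 two-colour whole-genome tiled arrays (3 *cdc14-3 snf1*, 2 *cdc14-3*, 3 *snf1*), each hybridised with cDNA of NaCl-treated and of unstressed cells. The labels name an Oyster dye for each, with the same assignment on all arrays, while the study's methods speak of cyanine dyes. The table deposited by the authors holds normalized log2 ratios, 1 for each feature on each array. The steps, the way tiled probes were combined, the reason for missing values and the genome build are not given in the sources used here, and any error in the normalization would shift the ratios. The median of every array was within 0.001 of 0. That the logarithm has base 2 follows from how the study describes and plots such values. The precision rests on the number of arrays and on the spread between them.

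Values were used as deposited. Features needed a value on 2 or more arrays in each strain, which 6135 of 6868 had. In limma 3.58.1 (R 4.3.3) the 8 arrays were fitted together, with a separate mean for each strain, and moderated with eBayes. Means against 0 and differences between strains were adjusted by Benjamini-Hochberg over these features, at an adjusted p of 0.05. The fit was tested on simulated data. Symbols came from a RefSeq table of assembly R64, which matched 5984 features by locus tag. The alternatives were a replicate block, heat time as a covariate, the 2 h arrays only, array weights, 1 spread for all arrays, quantile normalization, no filter or a full filter on missing values, only the strains compared, and each array left out. All 10 members are named, and all regulators and stress genes. From each other list up to 4 of the genes called in the comparison described are named, by the size of their mean or difference. *SDH1* is also named, as the remaining succinate dehydrogenase gene of its list. The members and lists were chosen with earlier results of these data known. Promoter motifs were not analysed here. A gene withheld from the lists is not reported here.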

Additional observations from a re-analysis of the deposited data

Results flagged for a closer look

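Responses of 4 members differed between *cdc14-3* and *snf1* cells in a way that merits another look. *CIT1* (0.85), *CIT2* (2.76) and *IDH2* (0.98) were higher in *cdc14-3* than in *snf1* cells by the limma test of the difference itself, on log2 ratios of 2 against 3 arrays. *MDH1* lay above 0 on both *cdc14-3* arrays and below 0 on all 3 *snf1* arrays, with a difference of 0.53 that limma did not call (adjusted p = 0.132). No cause was tested for any of them.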

How the results depend on the processing

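Of 990 alternative values for the 60 responses and differences of the members, 913 kept their direction and their side of the threshold, 25 lost a call, 16 gained one and 36 changed sign. None of the results that changed sign was called, before or after. The counts of called features depended more on the processing. For *cdc14-3 snf1* minus *cdc14-3*, 3 features were called, against 13 with heat time as a covariate, 44 on the 2 h arrays, 272 with array weights, 51 with 1 spread, 20 after quantile normalization, 0 without the filter, 25 with only those strains and 0 to 75 with 1 array left out (75 without *snf1* replicate 1, 24 without *cdc14-3 snf1* replicate 2, 0 without any other). For *cdc14-3 snf1* minus *snf1*, 0 were called by limma (1137 at an unadjusted p under 0.05), against 110 with heat time, 1382 on the 2 h arrays, 1657 with array weights and 0 to 731 with 1 array left out (731 without *snf1* replicate 1, 257 without *cdc14-3 snf1* replicate 1, 1 without its replicate 3). For *cdc14-3* minus *snf1*, 1161 were called, against 2278 on the 2 h arrays, 2548 with array weights and 0 to 1911 with 1 array left out (0 and 268 without *cdc14-3* replicates 2 and 3, 1911, 478 and 766 without *snf1* replicates 1, 2 and 3). The responses gave 2472 calls in *cdc14-3* (919 to 2919 with 1 array left out, 919 and 1199 without its own replicates 2 and 3), 2828 in *cdc14-3 snf1* (2074 to 3229) and 3148 in *snf1* cells (2476 to 3123). Members called in *cdc14-3 snf1* minus *cdc14-3* were 0, against 4 with array weights and 0 to 1 with 1 array left out. In *cdc14-3* minus *snf1* they were 3 (0 to 4), and in the responses 5 in *cdc14-3* (2 to 5), 6 in *cdc14-3 snf1* (5 to 6) and 5 in *snf1* cells (5 to 6). *IDH2* in *cdc14-3* minus *snf1* was not called when only those strains were fitted (limma adjusted p = 0.0527). Where a *cdc14-3* array was left out, the lone array left was assumed to vary like those of the other strains. The cause of these shifts was not tested.

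The labels number the replicates alike in the 3 strains, but nothing says that a number marks a shared culture or day. Deviations of same-numbered arrays from their strain means correlated between -0.212 and 0.264 over 6096 features. The 2 *cdc14-3* arrays deviate from their mean by equal and opposite amounts, so these values cannot decide whether the numbers mark pairs. The main fit did not take them as pairs. A fit with the replicate block called 2 features for *cdc14-3 snf1* minus *cdc14-3*, 10 for *cdc14-3 snf1* minus *snf1* and 890 for *cdc14-3* minus *snf1*. It left the members called between strains at 0, 0 and 3, and added *MDH1* in *snf1* cells (-0.37, limma adjusted p = 0.0429). With the replicate block, *ACO1* was 0.00 in *cdc14-3 snf1* minus *cdc14-3*, *IDH2* -0.12 and *KGD1* -0.04 in *cdc14-3* cells, and *FUM1* -0.02 in *cdc14-3* minus *snf1*.

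The other changes of sign were all in uncalled values, the largest of them *CIT2* in *cdc14-3 snf1* minus *snf1* (0.69) and *MAE1* in *cdc14-3 snf1* minus *cdc14-3* (0.47). With heat time as a covariate, *CIT1* in *snf1* cells was 0.03, *ACO1* in *cdc14-3 snf1* minus *cdc14-3* 0.00 and *FUM1* in *cdc14-3* minus *snf1* -0.02. With array weights the same differences of *ACO1* and *FUM1* were 0.03 and -0.04. On the 2 h arrays *ACO1* was -0.11 in *cdc14-3 snf1* minus *snf1* and -0.04 in *cdc14-3* minus *snf1*, *KGD1* 0.02 in *cdc14-3 snf1* cells and 0.01 in *cdc14-3 snf1* minus *cdc14-3*, and *FUM1* -0.11 in *cdc14-3* minus *snf1*. With 1 spread *ACO1* and *IDH2* were both -0.13 in *cdc14-3 snf1* minus *snf1* and *FUM1* -0.08 in *cdc14-3* minus *snf1*. After quantile normalization *MAE1* was -0.19 in *cdc14-3 snf1* minus *cdc14-3*. Leaving out 1 array gave, in *cdc14-3 snf1* minus *snf1*, ranges of -0.26 to 0.05 for *CIT1*, -0.11 to 1.25 for *CIT2*, -0.23 to 0.31 for *ACO1*, -0.17 to 0.21 for *IDH2* and -0.11 to 0.07 for *KGD2*. In *cdc14-3* minus *snf1* they were -0.04 to 0.50 for *ACO1* and -0.11 to 0.14 for *FUM1*, and in *cdc14-3 snf1* minus *cdc14-3* -0.19 to 0.01 for *KGD1*. In *cdc14-3* cells they were -0.03 to 0.17 for *IDH2*, -0.01 to 0.03 for *KGD1* and -0.02 to 0.00 for *KGD2*, and in *cdc14-3 snf1* cells -0.18 to 0.02 for *KGD1*.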
